A study of Homo sapiens with 6 samples.

Results

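Matrix metalloproteinases (MMPs), ADAM sheddases and their tissue inhibitors (TIMPs) were followed in A498, an established human line of clear cell kidney carcinoma, after knockdown of the receptor tyrosine phosphatase PTPRZ1. The 10 genes are MMP2, MMP7, MMP14, MMP15, ADAM9, ADAM10, ADAM17, TIMP1, TIMP2 and TIMP3, taken by symbol from the 61860 genes of the count table, and all 10 were found. RNA sequencing gave 3 control libraries, PTPRZ-nc, and 3 knockdown libraries, PTPRZ-Si. According to the labels the control group received a plasmid and the knockdown group siRNA, both groups carry the same entry for transfection and infection, and no time after treatment is given. Each group difference therefore cannot be told apart from a difference between plasmid and siRNA. Nothing in the labels tells if replicates were separate cultures, and p-values therefore reflect the spread of these libraries alone, which could be technical. In bulk RNA, fewer cells of a type and less RNA per cell cannot be told apart.

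MMPs are zinc proteases that cut collagens, laminins and other matrix proteins. Most are secreted as inactive precursors, while the membrane-type MMPs act at the cell surface. ADAM9, ADAM10 and ADAM17 are membrane-bound relatives that release the outer parts of growth factors, cytokine receptors, Notch receptors and adhesion molecules. TIMPs block the active sites of MMPs and, depending on the TIMP, of some ADAMs. TIMP2 also takes part in the activation of MMP2, as a bridge between MMP14 and the MMP2 precursor.

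Total counts in genes ran from 13726908 to 21469746 per library. PTPRZ1 had 0 counts in each of the 6 libraries, so the knockdown could not be checked by its target and every direction rests on the labels. Of 8 markers of clear cell kidney carcinoma 7 had enough counts to be tested, with PAX8 at 313.2 ± 21.3 and 556 ± 22.4 CPM (counts scaled to library size; SD, n = 3) in control and knockdown, whereas CA9 stood at 2.996 ± 0.507 and 2.536 ± 0.22 CPM and NDUFA4L2 had 26 counts in all. Of the 7, 4 were higher, 1 was lower and 2 did not pass, and the 1 lower was VIM, vimentin, from 1181 ± 47.1 to 788.1 ± 28.9 CPM (SD, n = 3, edgeR adjusted p = 8.69e-09). Thus 71.4% of the tested markers of this list were called, against 27.4% of all tested genes and 35.4% of genes averaging 5 CPM or more. The sum of the 8 was 3147 to 3177 CPM in the controls and 3123 to 3232 CPM in the knockdown. Marker sums were 1.387 to 1.827 CPM in the controls and 2.105 to 2.997 CPM in the knockdown for 6 endothelial genes, and 2.24 to 3.213 against 2.064 to 2.479 CPM for 7 leukocyte genes. CDH5, PTPRC and CD3E were at 0 counts. The sum of 8 fibroblast markers, 31.66 to 41.8 CPM in the controls and 21.79 to 24.05 CPM in the knockdown, was nearly all COL1A1, and LUM was at 0 counts. The part of these markers in the results below was not tested. PTPRZ-nc replicate 2 stood somewhat apart from the other controls, with a chi-square per degree of freedom of 5.25 and 6.23 against them and 2.67 between those 2. Without it the log2 fold changes of ADAM9, TIMP2 and MMP7 were 0.312, 0.237 and -0.282, and all 3 passed.

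The knockdown libraries held more ADAM9 and TIMP2 mRNA and less MMP7 mRNA than the controls. ADAM9 was 1.19-fold and TIMP2 1.16-fold higher, and MMP7 was 1.21-fold lower. MMP14, MMP15, ADAM10, ADAM17 and TIMP1 did not pass the test, MMP2 had too few counts to be tested and TIMP3 was listed at 0. So 3 of 8 tested genes passed an adjusted p of 0.05 (edgeR's quasi-likelihood test, adjusted over all 15476 tested genes), 2 higher and 1 lower, where 27.4% of all tested genes were called, 14% higher and 13.4% lower. All 8 averaged 5 CPM or more, and of genes at that level 35.4% were called. The share of the 8 is thus near the background. Their median log2 fold change was 0.09, against 0.001 over all tested genes.

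**Figure D1:**
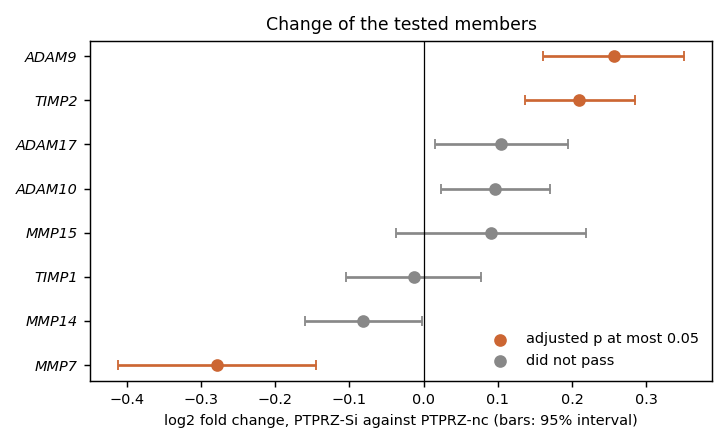
Log2 fold change of the 8 tested genes in PTPRZ-Si against PTPRZ-nc (x axis, points) with 95% intervals from the edgeR standard errors (bars). ADAM9 at 0.26 and TIMP2 at 0.21 lie to the right of 0 and MMP7 at -0.28 to the left, and the other 5 genes lie between -0.08 and 0.11. The bars use the normal distribution and are narrower than the test allows. That of MMP14 leaves out 0 although its unadjusted edgeR p was 0.0616.

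MMP7, matrilysin, is a small secreted MMP without the hemopexin-like domain of its relatives, made mostly by epithelial and tumour cells. It is encoded on chromosome 11 from 102520508 to 102530753 on the minus strand (GRCh38, ENSG00000137673). The 250 bases before its RefSeq start are shown because MMP7 was the 1 gene of the family called lower, and because its upstream region differs in letters from that of MMP14, the most abundant protease of the family. The sequences are from RefSeq (GRCh38.p14), chr11:102530748-102530997 on the minus strand and chr14:22836335-22836584 on the plus strand, written 5′ to 3′ toward the start. RefSeq's starts differ from the GENCODE 29 coordinates given for the genes, so the last bases of both windows lie inside the GENCODE genes, and distances are counted from the RefSeq start. Both are shown with capitals for the motifs searched on both strands.
MMP7: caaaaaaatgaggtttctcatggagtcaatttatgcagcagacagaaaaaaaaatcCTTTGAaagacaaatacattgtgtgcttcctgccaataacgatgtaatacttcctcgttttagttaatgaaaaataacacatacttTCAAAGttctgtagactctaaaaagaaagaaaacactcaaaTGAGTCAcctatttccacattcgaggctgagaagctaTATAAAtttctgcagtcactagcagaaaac
MMP14: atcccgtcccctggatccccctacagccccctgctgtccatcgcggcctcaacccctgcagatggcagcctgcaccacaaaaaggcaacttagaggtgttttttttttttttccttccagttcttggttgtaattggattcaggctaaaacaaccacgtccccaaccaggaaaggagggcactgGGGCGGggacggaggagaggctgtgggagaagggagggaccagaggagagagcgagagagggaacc

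The MMP7 window holds 1 match to TGANTCA, the letters bound by AP-1 factors, from 67 to 61 bases before the start, and 6.57% of 35116 RefSeq windows of this length hold 1 or more. It also holds 2 matches to CTTTGA, part of the letters bound by TCF and LEF factors, against 11.2% of windows with any, and a TATAAA from 30 to 25 bases before the start, against 10.7% with any. GGGCGG, the letters bound by SP1, does not occur in it, and 42.6% of windows hold that motif. No 2 of these motifs overlap in the MMP7 window. The promoter table held 7 of the 10 genes and lacked MMP2, ADAM9 and TIMP2. ADAM9 and TIMP2, the genes called higher, thus have no window here, and MMP7 is the only called gene with one. In the windows of MMP14, MMP15, ADAM10, ADAM17, TIMP1 and TIMP3 there was no match to the AP-1, TCF/LEF or TATA letters and at least 1 to those of SP1. GC content was 33.6% for MMP7 and ran from 56.8% for MMP14 to 75.6% for ADAM17. These matches describe letters, and binding was not measured. The motifs were not part of the planned design, and MMP7 was picked by its call. The shares of windows beside its matches therefore carry no test, and no conclusion is drawn from them.

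MMP7 stood at 39.31, 38.07 and 37.07 CPM in the controls (replicates 1, 2 and 3), and at 31.51, 32.74 and 30.13 CPM in the knockdown (replicates 1, 2 and 3). All 3 knockdown libraries lay below all 3 controls. Its mean fell from 38.15 ± 1.12 to 31.46 ± 1.31 CPM (SD, n = 3), a log2 fold change of -0.28 (SE 0.068, 95% interval -0.411 to -0.145, edgeR adjusted p = 0.00534). The count behind it was 3667 over the 6 libraries.

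MMP2, gelatinase A, is the secreted MMP that cuts type IV collagen and that MMP14 activates. It is encoded on chromosome 16 from 55389700 to 55506691. It had 12, 4 and 4 counts in the controls (replicates 1, 2 and 3) and 3, 9 and 9 counts in the knockdown (replicates 1, 2 and 3), or 0.2091 to 0.7009 CPM over all libraries. The groups overlapped, and the counts were too few for the filter on low counts. When every gene with a count was tested, MMP2 differed by -0.15 on the log2 scale (SE 0.637, edgeR adjusted p = 0.923), so a difference was not detectable at this depth.

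MMP14, or MT1-MMP, is the membrane-anchored collagenase that also cuts the MMP2 precursor, and MMP15, or MT2-MMP, is its close relative. MMP14 lies on chromosome 14 from 22836557 to 22849027 and MMP15 on chromosome 16 from 58025566 to 58046901. MMP14 stood at 460.8, 491.3 and 455.5 CPM in the controls and at 452.9, 430.6 and 446.9 CPM in the knockdown libraries, in the order of their replicates. The groups did not overlap, but the lowest control and the highest knockdown library lay close together. Its log2 fold change of -0.08 (SE 0.0405, 95% interval -0.16 to -0.002) did not pass (edgeR adjusted p = 0.155). Before adjustment edgeR's p was 0.0616, so the normal interval, which leaves out 0, is narrower than the test allows. MMP15 stood at 42.52, 41.73 and 38.46 CPM in the controls and at 44.68, 42.48 and 43.51 CPM in the knockdown. Here the groups overlapped, and the difference of 0.09 (SE 0.0653, 95% interval -0.037 to 0.219, edgeR adjusted p = 0.335) did not pass.

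**Figure D2:**
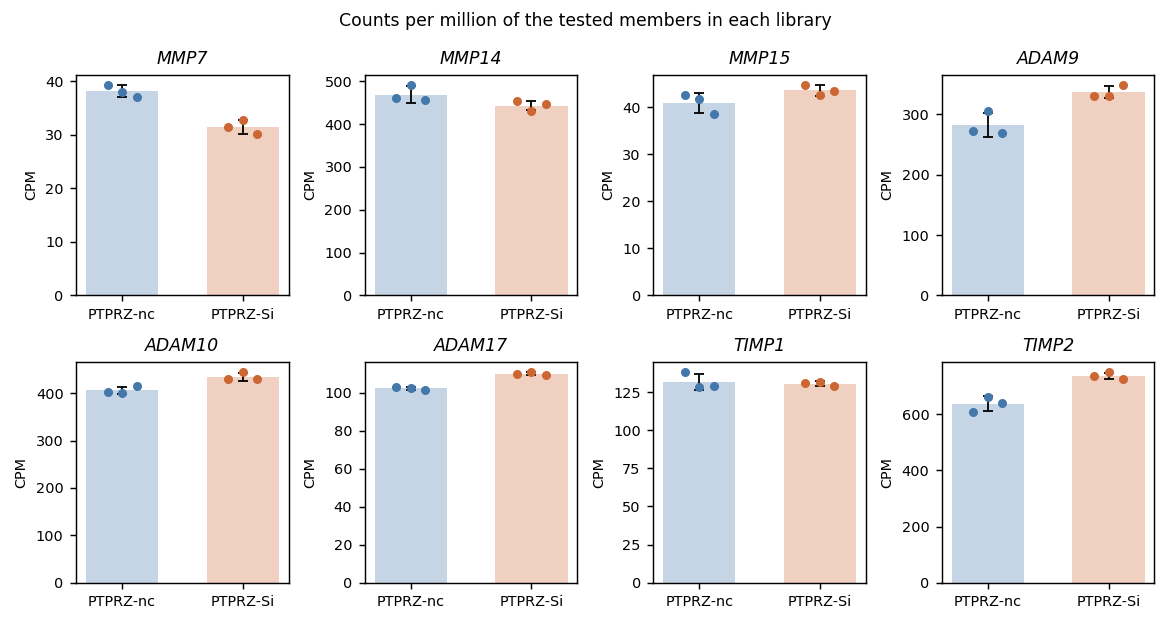
CPM of the 8 tested genes by group (y axes start at 0). Points are libraries, bars are means and error bars are SD of 3 libraries. ADAM9 and TIMP2 are higher and MMP7 is lower in all 3 PTPRZ-Si libraries than in any PTPRZ-nc library.

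Of ADAM9, ADAM10 and ADAM17, only ADAM9, known for shedding HB-EGF and other surface proteins, was called. It stood at 272.9, 305.4 and 269.4 CPM in the controls (replicates 1, 2 and 3) and at 331.2, 331.3 and 348.8 CPM in the knockdown (replicates 1, 2 and 3). Control replicate 2 was the highest control, and all knockdown libraries lay above it. ADAM9 rose from 282.6 ± 19.8 to 337.1 ± 10.2 CPM (SD, n = 3), a log2 fold change of 0.26 (SE 0.0484, 95% interval 0.161 to 0.351, edgeR adjusted p = 0.000724).

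ADAM10, the main sheddase of Notch receptors, cadherins and betacellulin, lies on chromosome 15 from 58588807 to 58749978. It stood at 403.3, 400.5 and 414.9 CPM in the controls and at 429.9, 443.8 and 429.1 CPM in the knockdown libraries. The groups did not overlap, and the log2 fold change of 0.10 (SE 0.0374, 95% interval 0.023 to 0.17) missed the threshold (edgeR adjusted p = 0.0666). With the test limited to genes that average 5 CPM or more it passed (edgeR adjusted p = 0.0354), and over the 12 alternatives its adjusted p ran from 0.0354 to 0.235.

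ADAM17, or TACE, releases TNF, TGF-alpha and amphiregulin. It is encoded on chromosome 2 from 9488486 to 9556732. Its levels were 103, 102.7 and 101.4 CPM in the controls and 109.9, 110.8 and 109.5 CPM in the knockdown. The 2 groups were narrow and did not overlap, and the log2 fold change of 0.11 (SE 0.0456, 95% interval 0.016 to 0.195) did not pass (edgeR adjusted p = 0.1). IAH1, on the opposite strand, shares 12.31% of the exon bases of ADAM17. Counting took no account of strand, so reads in that shared stretch cannot be assigned to either gene with certainty. ADAM9, ADAM10 and ADAM17 thus all had positive log2 fold changes and groups without overlap. Other ADAMs, described below, went both ways. Of the 8 tested genes 6 had groups without overlap, as had 40.8% of all tested genes. All 8 averaged 5 CPM or more, and the share without overlap among genes at that level was not computed.

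TIMP2 is the inhibitor that both restrains MMP14 and, in complex with it, brings the MMP2 precursor to the cell surface. It lies on chromosome 17 from 78852977 to 78925387 on the minus strand. Its levels were 610.2, 663.1 and 639.2 CPM in the controls (replicates 1, 2 and 3) and 735.5, 749.7 and 727.1 CPM in the knockdown (replicates 1, 2 and 3). The gap between the highest control and the lowest knockdown library was wider than the range of either group. TIMP2 rose from 637.5 ± 26.5 to 737.4 ± 11.5 CPM (SD, n = 3), a log2 fold change of 0.21 (SE 0.0379, 95% interval 0.136 to 0.285, edgeR adjusted p = 0.000486).

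TIMP1, an inhibitor of many MMPs and of ADAM10, lies on the X chromosome from 47582313 to 47586789. It stood at 137.9, 128 and 129 CPM in the controls and at 131, 131.6 and 128.9 CPM in the knockdown. The groups overlapped, and the log2 fold change was -0.01 (SE 0.0467, edgeR adjusted p = 0.871). The 95% interval, -0.105 to 0.078, bounds the difference. TIMP1 and TIMP2 were not tested against each other.

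TIMP3, the inhibitor that stays bound to the matrix and blocks ADAM17, lies on chromosome 22 from 32801701 to 32863043. It had 0 counts in each of the 6 libraries, which allows up to 0.0605 CPM over the 3 controls together and 0.053 CPM over the 3 knockdown libraries (3 counts, counting error only). In the same table all 37 genes of the mitochondrial genome are at 0 counts, so a gene listed at 0 is not shown to be silent.

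Levels were also set in order per length, as CPM per kilobase of exon, a scale on which different genes can be compared. TIMP2 came first with 113.2 ± 4.71 in the controls and 130.9 ± 2.03 in the knockdown (SD, n = 3). MMP14 followed with 105.1 ± 4.33 and 99.34 ± 2.59, then TIMP1 with 85.42 ± 3.54 and 84.67 ± 0.919, ADAM9 with 40.88 ± 2.87 and 48.77 ± 1.47 and ADAM10 with 25.12 ± 0.473 and 26.86 ± 0.513. MMP7 (16.42 ± 0.483 and 13.54 ± 0.562), ADAM17 (9.522 ± 0.0819 and 10.24 ± 0.0629) and MMP15 (9.256 ± 0.487 and 9.857 ± 0.249) were lower, and MMP2 lay at 0.0815 ± 0.0531 and 0.0718 ± 0.0255. The order of the means was the same in both groups. Over the 6 libraries, neighbours in this order overlapped for TIMP2 with MMP14 and for ADAM17 with MMP15. Exon lengths counted every annotated exon, so genes with long rarely used exons, ADAM10 above all with 16168 bases, read low on this scale.

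**Figure D3:**
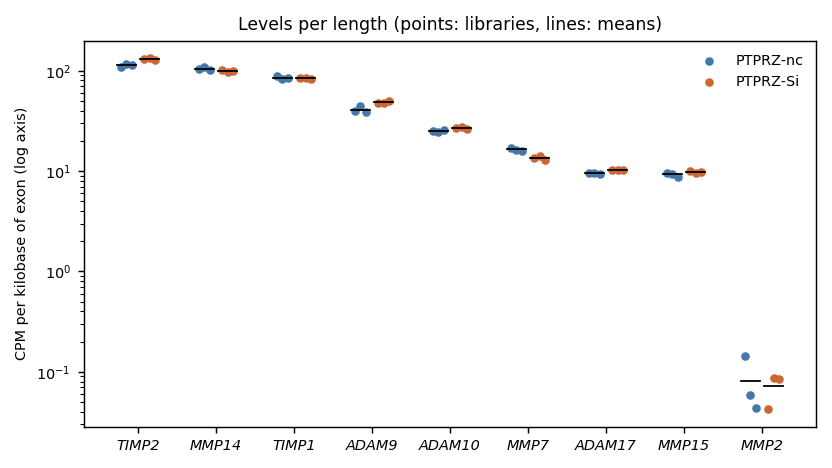
CPM per kilobase of exon (log axis) of the 9 genes with counts, ordered by mean. Points are libraries, colours are groups and lines are group means. TIMP2, MMP14 and TIMP1 lie near 100, and MMP2 lies below 0.15.

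The ratio of protease to inhibitor mRNA was described within each library, where library size cancels. Protein and active enzyme were not measured. The log2 ratio of MMP14 to TIMP2 was -0.07, -0.10 and -0.15 in the controls (replicates 1, 2 and 3) and -0.36, -0.47 and -0.37 in the knockdown (replicates 1, 2 and 3). The knockdown libraries all lay lower, with a mean ratio of 0.759 against 0.929 in the controls, a difference of -0.29 on the log2 scale. That difference restates the fold changes given above for MMP14 and TIMP2. For ADAM10 to TIMP1 the groups also did not overlap, with means of -1.66 ± 0.02 in the knockdown and -1.76 ± 0.071 in the controls (SD, n = 3, log2). The highest control, at -1.71, lay close to the lowest knockdown library, at -1.68. Neither ADAM10 nor TIMP1 had passed the test, and this ratio too restates their fold changes. MMP14 to TIMP1, a pair known to bind weakly, overlapped between groups (0.23 ± 0.047 and 0.30 ± 0.1), and MMP2 to TIMP2 rested on too few MMP2 counts to be read. These ratios carry no test, and ADAM17 to TIMP3 has none because TIMP3 was at 0 counts.

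**Figure D4:**
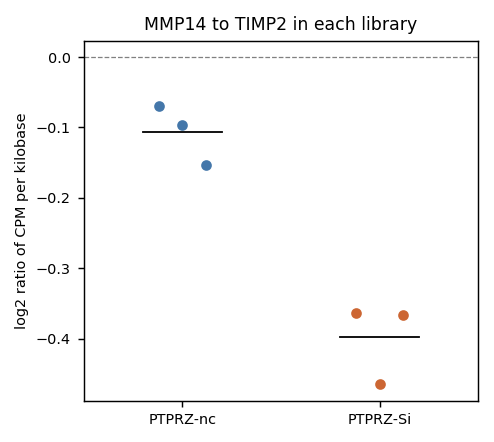
Log2 ratio of MMP14 to TIMP2, both as CPM per kilobase (y axis), in each library. Points are libraries, lines are group means and the dashed line marks equal levels. All 3 PTPRZ-Si libraries lie below the 3 PTPRZ-nc libraries.

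Most other matrix metalloproteinases were at or near 0. Of 19 listed, 16 could not be tested, among them MMP1 with 2 counts over the 6 libraries, MMP9 with 16 and MMP3 with 6, and 5 had none. The 3 that were tested, named after their values were seen, were MMP24 (log2 fold change -0.11), MMP21 (0.34) and MMP13 (0.13), and 0 passed with edgeR, with 0 under an unadjusted p of 0.05. With limma-voom 0 of the 3 passed, and DESeq2 gave an adjusted p for 1 of the 19, which did not pass. Without knockdown replicate 1, MMP16, named after its value was seen, entered the test on 47 counts over the 6 libraries and was called higher (log2 fold change 1.79, SE 0.588, edgeR adjusted p = 0.043). In the library left out MMP16 stood at 0.2091 CPM, within the control range of 0.1462 to 0.3201 CPM, so that call rests on its removal. Of 18 other ADAMs 9 were tested, with 3 lower, 1 higher and 5 not passed. ADAM15, a membrane protease that also binds integrins, fell from 207.8 ± 8.55 to 137.1 ± 1.56 CPM (SD, n = 3, edgeR adjusted p = 3.71e-08), and ADAM19 fell from 76 ± 1.91 to 56.85 ± 4.07 CPM. ADAM23, which lacks protease activity and binds integrins, rose from 16.05 ± 0.361 to 21.39 ± 0.946 CPM. ADAM21 also fell, on 44 counts in all. The median over these ADAMs was -0.25 on the log2 scale. Of those tested 44.4% were called, against 27.4% of all tested genes and 35.4% of genes averaging 5 CPM or more. Of the 18, 6 averaged 5 CPM or more.

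Of 19 ADAMTS genes, secreted relatives that cut procollagens and proteoglycans, 12 were tested, with 3 higher, 3 lower and 6 not passed (median log2 fold change -0.01). That is 50% called, against 27.4% of all tested genes and 35.4% of genes averaging 5 CPM or more. ADAMTS9, which cuts versican, rose from 18.92 ± 1.17 to 31.3 ± 1.86 CPM (SD, n = 3, edgeR adjusted p = 3.92e-06). ADAMTS2, the procollagen N-proteinase, fell from 98.94 ± 3.22 to 75.26 ± 3.28 CPM, and ADAMTS7 fell from 53.96 ± 3.68 to 42.2 ± 1.13 CPM. ADAMTS13, which cuts von Willebrand factor, fell from 10.2 ± 0.28 to 7.591 ± 0.48 CPM, but did not pass without knockdown replicate 1 (edgeR adjusted p = 0.0581) or with DESeq2 (0.0501), in a range of 0.0159 to 0.0581 over the alternatives. The number higher was 1 in place of 3 without control replicate 3 or without any 1 of the knockdown replicates.

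Of 12 other inhibitors and clearance factors 9 were tested, with 4 lower, 1 higher and 4 not passed (median log2 fold change -0.06). The share called was 55.6%, against 27.4% of all tested genes and 35.4% of genes averaging 5 CPM or more. TFPI2, a Kunitz-type inhibitor of plasmin, fell from 92.41 ± 3.87 to 49.86 ± 1.66 CPM (SD, n = 3). RECK, a membrane-anchored inhibitor of MMPs, fell from 27.13 ± 1.55 to 20.89 ± 0.597 CPM. SPOCK1, a testican proteoglycan, rose from 267 ± 19.2 to 396.7 ± 12.6 CPM. RECK and TIMP2, both MMP inhibitors, thus moved in opposite directions. TIMP4, the remaining TIMP, had 3 counts and was not tested.

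Of 21 genes for activation and trafficking of these proteases 19 were tested, with 6 lower, 4 higher and 9 not passed (median log2 fold change -0.11). Called were 52.6% of those tested, against 27.4% of all tested genes and 35.4% of genes averaging 5 CPM or more. PCSK5, a proprotein convertase, rose from 87.46 ± 1.51 to 110.6 ± 1.63 CPM (SD, n = 3), while FURIN, which cuts the precursors of MMP14 and the ADAMs, did not pass (log2 fold change -0.05, SE 0.0621, edgeR adjusted p = 0.595). The 2 iRhoms, which carry ADAM17 to the cell surface, went opposite ways: RHBDF2 fell from 151.7 ± 5.96 to 124.3 ± 6.46 CPM and RHBDF1 rose from 53.53 ± 1.95 to 62.75 ± 2.35 CPM. Of the 6 TspanC8 tetraspanins, which escort ADAM10 out of the endoplasmic reticulum, 1 was higher, 3 were lower and 2 did not pass. TSPAN14 rose from 271.6 ± 10.7 to 347 ± 4.1 CPM and TSPAN33 fell from 43.84 ± 3.24 to 33.04 ± 1.87 CPM. TSPAN15 (-0.20) and TSPAN17 (-0.13) were near the threshold: each of them lost its call without control replicate 1 or any 1 knockdown replicate, TSPAN15 also without control replicate 2 and TSPAN17 also without control replicate 3 (edgeR adjusted p up to 0.103 and 0.148). TSPAN17 did not pass with DESeq2 or without the filter on low counts either (adjusted p = 0.0716 and 0.087). TSPAN5 (-0.04) and TSPAN10 (-0.17) did not pass. Without control replicate 1 or any 1 knockdown replicate the list had 3 lower in place of 6. RHBDF1 and the tetraspanins other than TSPAN14 and TSPAN33 were named after their values were seen.

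Of 26 membrane proteins known to be shed or cleaved by this family 23 were tested, with 12 lower, 5 higher and 6 not passed (median log2 fold change -0.22), so 73.9% were called, against 27.4% of all tested genes. Of the 26, 19 averaged 5 CPM or more, a level at which 35.4% of genes were called, and the list was chosen with earlier results of these data known. AXL, a receptor kinase, fell from 343 ± 1.93 to 194.5 ± 7.39 CPM (SD, n = 3, edgeR adjusted p = 3.71e-10). The heparan sulfate proteoglycans SDC4 and SDC1 both fell, SDC4 from 163.2 ± 9.95 to 113.6 ± 5.57 CPM and SDC1 from 978.6 ± 21.8 to 806.3 ± 20 CPM. APP, the amyloid precursor, rose from 1512 ± 28.2 to 1746 ± 11.6 CPM, and TNFRSF1A, a receptor of TNF, rose from 398.7 ± 1.73 to 445.8 ± 6.89 CPM. The number higher was 2 or 3 in place of 5 with control 1, knockdown 1 or knockdown 2 left out.

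Ligands of the EGF receptor family are shed by the ADAMs described here. Of 6 listed 5 were tested, with 3 lower, 1 higher and 1 not passed. Called were 27.4% of all tested genes and 35.4% of genes averaging 5 CPM or more. TGFA fell from 811.1 ± 3.25 to 511.4 ± 5.26 CPM (SD, n = 3, edgeR adjusted p = 3.81e-10) and AREG, amphiregulin, fell from 11.14 ± 0.947 to 6.736 ± 1.11 CPM. HBEGF fell from 8.803 ± 0.823 to 6.4 ± 0.859 CPM, but did not pass when control 1, control 2 or knockdown 2 was left out (edgeR adjusted p = 0.0617, 0.062 and 0.12) or with DESeq2 (0.059), in a range of 0.023 to 0.12 over the alternatives. NRG1, neuregulin, which binds other receptors of that family, rose (log2 fold change 0.17), but did not pass with control 1 or knockdown 1 left out (edgeR adjusted p = 0.0686 and 0.153, in a range of 0.0145 to 0.153). BTC (-0.50) did not pass (edgeR adjusted p = 0.0622), but passed with limma-voom (0.0477) and without control replicate 1 or knockdown replicate 1 (0.0439 and 0.0304), in a range of 0.0304 to 0.19. EREG had 6 counts and was not tested. Shedding itself was not measured. Other than TGFA, the ligands were named after their values were seen.

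**Figure D5:**
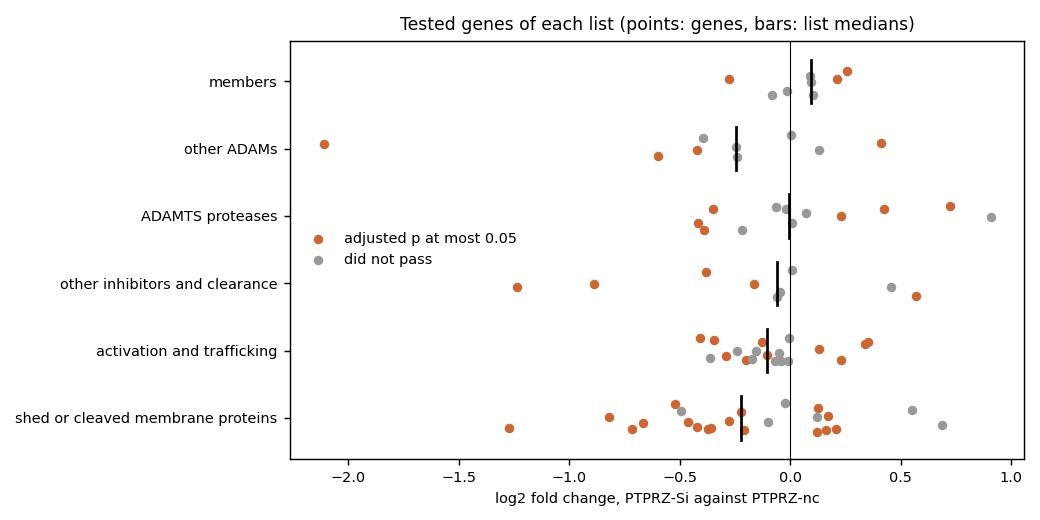
Log2 fold change in PTPRZ-Si against PTPRZ-nc (x axis) of the tested genes of each list (rows). Points are genes, coloured by whether they passed an adjusted p of 0.05, and black bars are list medians. The MMPs, ADAMs and TIMPs of the top row lie between -0.28 and 0.26, while called genes of the other lists reach further, ADAM21 to -2.11 and ADAMTS9 to 0.72.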

How the data were processed

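The deposited values are raw counts of read pairs per gene. According to the command in the table, that is per the file headers, the authors made them with featureCounts 2.0.1 in paired mode over exons, with Ensembl annotation release 107 of GRCh38, from alignments whose names contain hisat, and no strand option was set. No version of the aligner is given in the sources used. Within each group, libraries differed by more than counting noise (chi-square over degrees of freedom from 2.19 to 6.23), so none was treated as another deposited again.

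Genes kept by filterByExpr (15476, with 99.82% of the counts) were scaled by TMM and tested with edgeR 4.0.16 in R 4.3.3 (glmQLFit and glmQLFTest, 2-sided, Benjamini-Hochberg over all tested genes). CPM values use TMM-scaled library sizes. Exon lengths and coordinates are those of GENCODE 29 (GRCh38), since the table gives no lengths, although lengths from the table had been planned. Standard errors were taken from the fold change and its F statistic, and 95% intervals use the normal distribution. These intervals are therefore somewhat narrower than the F test would give. The test was checked on simulated counts. Alternatives were DESeq2 1.42.0, its size factors, limma-voom (limma 3.58.1), other filters, a replicate block and leaving out each library.

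The genes and lists were chosen with earlier results of these data known. The text names the 10 genes always, PTPRZ1, up to 4 called genes with the smallest p of each list, and up to 2 called against their list's direction. FURIN, TIMP4, MMP1, MMP3, MMP9, IAH1 and the single marker genes fall outside this rule and were named after their values were seen, as were those for which the text says so. A gene that this rule names is not reported here.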

Additional observations from a re-analysis of the deposited data

How the results depend on the processing

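ADAM9, TIMP2 and MMP7 kept their direction and their call under each of the 12 alternatives run. Their log2 fold changes ran from 0.221 to 0.312, from 0.179 to 0.237 and from -0.313 to -0.247, and the highest edgeR adjusted p without a library were 0.00949, 0.00587 and 0.0395. Leaving out 1 library gave 2 genes of the family higher and 1 lower each time. TIMP1 ran from -0.035 to 0.021 with 1 library left out, and turned to 0.021 without PTPRZ-nc replicate 1, where it did not pass either (edgeR adjusted p = 0.823). Over the fixed lists together, 14 of 75 tested genes were higher and 28 lower, where 14% and 13.4% of all tested genes were. Of genes averaging 5 CPM or more 17.4% were higher and 18% lower. For the fixed lists, leaving out 1 library gave 9 to 12 higher and 22 to 28 lower. Over all genes 2164 were higher and 2079 lower, and 1633 to 2264 higher and 1530 to 2161 lower without 1 library.

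With the replicate block 2123 genes were higher and 1978 lower, and for the family 2 and 1. The replicate numbers pair nothing that the labels name. Deviations of same-numbered libraries from their group means correlated at 0.03, 0.06 and -0.04 over 11018 genes. For differently numbered libraries the correlations ran from -0.081 to 0.057. With 3 libraries per group this cannot show whether same-numbered libraries shared a culture or a day. Among genes named here the block ended the call of TSPAN17 alone (edgeR adjusted p = 0.0794). Levels per length moved by less than 1 SD with DESeq2's size factors. Low counts limit what can be said of MMP2, and for TIMP3 and the MMPs at 0 counts the cause was not tested.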
